A study of Mus musculus with 8 samples.

Results

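The peroxiredoxin and thioredoxin system was examined in the soleus, a calf muscle rich in slow fibres. The set was defined by name as 6 peroxiredoxins (Prdx1 to Prdx6), 2 thioredoxins (Txn1 and Txn2) and 2 thioredoxin reductases (Txnrd1 and Txnrd2). Of these 10 genes, 8 were measured by a probe set that the platform annotation gives to a single gene, out of 19938 genes measured in this way. Prdx5 and Prdx6 were not analysed here. For Prdx1 and Prdx2, which have 2 probe sets each, the probe set with the highest mean over all arrays stands for the gene.

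The tested animals were 4 male Ts65Dn mice, a model of Down syndrome in which an extra marker chromosome brings the distal end of chromosome 16 and the centromeric end of chromosome 17 to 3 copies. The controls were 4 male wild-type (WT) mice of the same colony, on the mixed B6 and C3H background that the labels name B6EiC3SnF1/J. All mice were 5 months old, appeared healthy, and were under sodium pentobarbital when the muscle was taken in the basal state. Each mouse gave 1 array, and values are log2 RMA values, on which 1 unit is a doubling of the signal. RNA came from whole muscle, so that fewer cells of a type and less RNA per cell cannot be told apart. None of the 8 genes lies in a segment present in 3 copies (0 of 8). Txnrd2 lies on chromosome 16, on the side of the segment boundary that is present in the normal number of copies.

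Peroxiredoxins reduce hydrogen peroxide and organic peroxides with a reactive cysteine, which is oxidised in the process. Thioredoxins reduce the resulting disulfide, and thioredoxin reductases, which are selenoproteins, recharge the thioredoxins with electrons from NADPH. The system exists in parallel in separate compartments, with Prdx1, Prdx2, Txn1 and Txnrd1 in the cytosol and Prdx3, Txn2 and Txnrd2 in mitochondria. Prdx4 lies in the endoplasmic reticulum (ER), where it passes oxidising equivalents to protein disulfide isomerases. In muscle the system acts on peroxide that mitochondria and oxidases of the contracting fibre produce.

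Across the arrays, WT arrays 2 and 3 stood apart. The interquartile range of all values was 2.74 and 2.62 on these 2 arrays, between 3.01 and 3.12 on the Ts65Dn arrays, and 2.93 and 2.90 on WT arrays 1 and 4. Both arrays lay below the other 6 for 13.1% of all genes, and for 36.9% of the genes with a mean level over 9 and 43.3% of those between 7 and 9. Results are therefore also given without these 2 arrays and as level-matched values, from which the median deviation of the 100 genes nearest in mean level was subtracted in each array. App, a gene of the segment in 3 copies, was between 8.09 and 8.59 on the Ts65Dn arrays and between 6.43 and 7.48 on the WT arrays. The 9 muscle fibre markers, among them the slow-fibre genes Myh7 and Tnni1, all lay above the median level of all genes (9 of 9), and the lowest of them had a mean of 10.05.

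Of the 8 genes, limma's test called 0 higher and 0 lower in Ts65Dn soleus at an adjusted p under 0.05, where 2.32% of all genes were called higher and 2.94% lower. At an unadjusted p under 0.05, 2 of the 8 were higher, Txnrd1 and Prdx4, and 0 were lower, beside 12.3% and 22.6% of all genes. For no gene of the 8 did the groups separate completely, which they did with Ts65Dn above WT for 6.81% of all genes and with Ts65Dn below WT for 15.9%. The log2 fold change was positive for 5 of 8 genes and for 39.2% of all genes, with a median of 0.08 over the 8 and -0.10 over all genes. All 8 lie among the 9969 genes above the median level, and over those genes the median was 0.11.

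In the cytosol, Txnrd1, the reductase that recharges cytosolic thioredoxin, had the smallest p of the set. Its promoter and that of Prdx1 were the ones among the 8 that held the core letters of the antioxidant response element, to which NRF2 binds. They are shown for that reason, together with the promoter of Prdx4, the gene with the largest log2 fold change of the set. Each stretch holds the 250 bases before a transcript start, read along the gene, from RefSeq on GRCm38.p6. The coordinates are chr10:82858956-82859205 for Txnrd1 (plus strand, the second of 3 starts), chr4:116685349-116685598 for Prdx1 (plus strand) and chrX:155338461-155338710 for Prdx4 (minus strand). Capitals mark TGACNNNGC on either strand in Txnrd1 and Prdx1, and the E-box CACGTG in Prdx4.
Txnrd1: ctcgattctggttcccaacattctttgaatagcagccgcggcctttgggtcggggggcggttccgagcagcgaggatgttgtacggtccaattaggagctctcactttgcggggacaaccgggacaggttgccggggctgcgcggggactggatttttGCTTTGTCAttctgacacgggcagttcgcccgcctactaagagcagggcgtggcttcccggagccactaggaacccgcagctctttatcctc
Prdx1: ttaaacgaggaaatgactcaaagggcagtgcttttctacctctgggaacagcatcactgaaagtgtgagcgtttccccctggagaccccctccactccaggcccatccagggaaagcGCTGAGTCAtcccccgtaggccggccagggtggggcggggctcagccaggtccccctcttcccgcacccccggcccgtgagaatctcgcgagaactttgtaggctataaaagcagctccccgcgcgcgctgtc
Prdx4: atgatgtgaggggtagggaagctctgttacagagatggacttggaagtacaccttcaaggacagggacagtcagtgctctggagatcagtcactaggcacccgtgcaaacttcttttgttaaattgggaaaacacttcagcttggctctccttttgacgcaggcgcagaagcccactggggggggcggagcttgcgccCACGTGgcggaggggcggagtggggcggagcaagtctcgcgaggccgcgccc

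Promoter windows from 250 bases before to 50 bases after the start were available for all 8 measured genes, as 10 windows. The letters TGACNNNGC, searched on both strands, were in the windows of 2 of the 8 genes (2 of 10 windows) and in 12.4% of all 32851 windows. In Txnrd1 they lay from position -92 to -84 relative to the start, and in Prdx1 from -133 to -125, in both on the minus strand of the gene and without overlap with another motif searched. The E-box CACGTG was in 1 of the 8, Prdx4, and in 8.09% of all 27025 genes with a window. The GC box GGGCGG was in 8 of the 8 and in 38.2% of all genes. TATAAA was in 3 of the 8 (Prdx1, Prdx3 and Txn1), against 15.7% of all genes, and CCAAT in 3 of the 8 (Prdx4, Txn2 and Txnrd1), against 41.1%. The core motif of NRF1 was in 0 of the 8 and in 5.19% of all genes, and the ER stress response element in 0 of the 8 and 0.137% of all genes. The median G and C content was 60.7% over the 10 windows and 52.7% over all windows. These matches describe the letters in the windows and do not show binding.

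Txnrd1 was at 7.05, 6.89, 6.85 and 7.06 on Ts65Dn arrays 1 to 4, against 6.88, 6.39, 6.07 and 6.59 on WT arrays 1 to 4. The lowest Ts65Dn array lay just under WT array 1, and 3 of 4 Ts65Dn arrays were above the whole WT group. The means were 6.96 ± 0.11 in Ts65Dn and 6.48 ± 0.34 in WT (SD, n = 4 each), a log2 fold change of 0.48 (95% interval 0.11 to 0.85) with a limma adjusted p of 0.0826. Without WT array 1, the WT array nearest to the Ts65Dn group, the log2 fold change was 0.61 and the limma adjusted p 0.0375. The log2 fold change was 0.14 for level-matched values (adjusted p = 0.490 by limma) and 0.23 without WT arrays 2 and 3 (adjusted p = 0.413 by limma).

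Prdx1, an abundant cytosolic peroxiredoxin, was at 9.68, 9.55, 9.52 and 9.64 on the Ts65Dn arrays, against 9.61, 8.68, 9.10 and 9.87 on the WT arrays. WT arrays 2 and 3 were the lowest of the 8 and WT array 4 the highest, so that the WT group enclosed the Ts65Dn group. The means were 9.60 ± 0.08 in Ts65Dn and 9.31 ± 0.53 in WT (SD, n = 4 each), a log2 fold change of 0.28 (95% interval -0.21 to 0.78, adjusted p = 0.369 by limma). It was 0.0736 without WT array 2 alone and 0.47 without WT array 4 alone. Without WT arrays 2 and 3 together it turned to -0.14, and as level-matched values it was 0.13. The second probe set of Prdx1 had a log2 fold change of 0.24, and -0.06 without WT arrays 2 and 3.

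Prdx2, the peroxiredoxin best known from red blood cells, was at 10.98, 11.16, 11.09 and 10.98 on the Ts65Dn arrays, against 11.28, 10.96, 10.83 and 11.15 on the WT arrays. The groups had nearly the same mean, 11.05 ± 0.09 in Ts65Dn and 11.05 ± 0.20 in WT (SD, n = 4 each), and the 95% interval of the log2 fold change ran from -0.29 to 0.28 (adjusted p = 0.995 by limma). Its dimmer probe set lay between 9.87 and 10.07 on the Ts65Dn arrays, against 9.95, 9.10, 9.23 and 10.04 on the WT arrays. There the log2 fold change was 0.41 (95% interval -0.09 to 0.91), and -0.0036 without WT arrays 2 and 3, which were the low arrays. The difference between the 2 probe sets (dimmer minus brighter) was -1.06 ± 0.14 in Ts65Dn and -1.47 ± 0.33 in WT (SD, n = 4 each), a contrast of 0.41 with an exact two-sided permutation p of 0.0857 (0.171 adjusted over the 2 genes with 2 probe sets), where the smallest possible p is 0.0286. For Prdx1 the same contrast was -0.05 (exact two-sided permutation p = 0.829). The annotation names the same RefSeq transcripts for both probe sets of a gene. Probe set numbers of the other members rise in the chromosome order 10, 15, 16, 19, 4 and X. The dimmer Prdx2 probe set is numbered between those of chromosomes 4 and X, and the brighter one before chromosome 10. Prdx2 lies on chromosome 8. For Prdx1, on chromosome 4, the brighter is numbered between chromosomes 19 and 4, and the dimmer between 16 and 19. Which probe set also detects related copies elsewhere in the genome was not tested. The value of Prdx2 is thus uncertain, and the main counts over the 8 genes use the brighter probe set. Of the 9 red blood cell markers 3 were measured, and none had an unadjusted p under 0.05 (0 of 3), with a mean log2 level per array of 4.35 to 5.11 in Ts65Dn and 4.72 to 4.97 in WT.

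**Figure D1:**
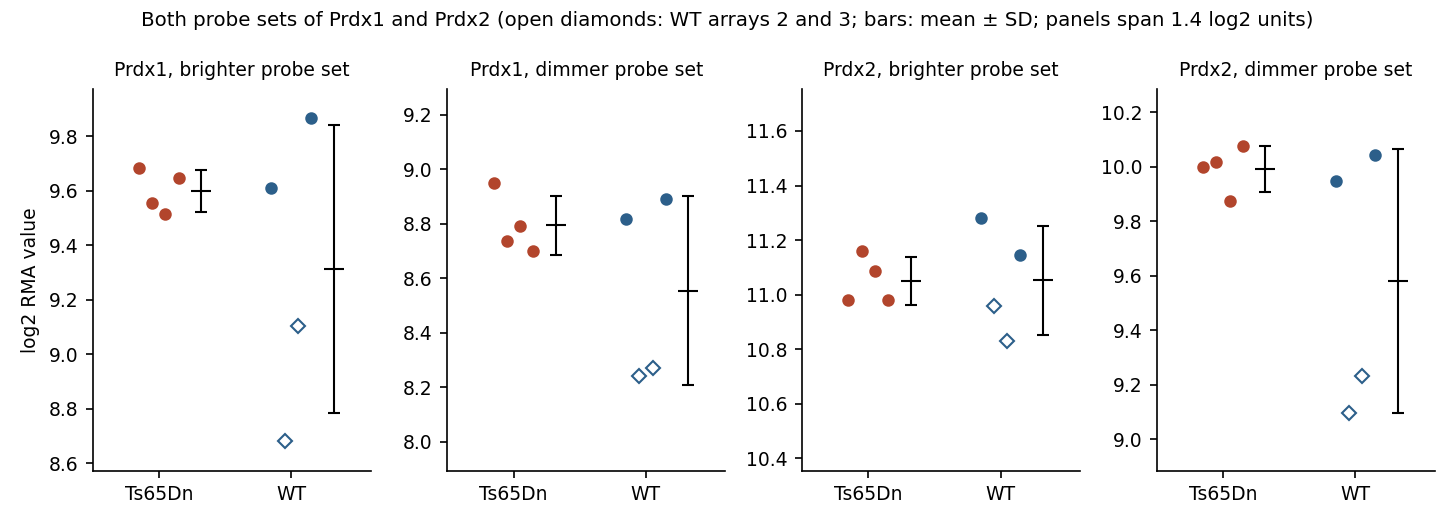
Log2 RMA values (vertical axis) of the brighter and the dimmer probe set of Prdx1 and Prdx2 in Ts65Dn and WT soleus, 1 point per mouse, with mean ± SD (n = 4). WT arrays 2 and 3 (open diamonds) are lowest in all 4 panels, at 9.10 and 9.23 for the dimmer Prdx2 probe set, where the Ts65Dn arrays lie between 9.87 and 10.07.

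Txn1, the cytosolic thioredoxin, was at 10.47, 10.39, 10.60 and 10.49 on the Ts65Dn arrays, against 10.50, 10.66, 10.75 and 10.30 on the WT arrays. WT arrays 2 and 3 were here the highest of the 8, the reverse of the peroxiredoxins. The means were 10.49 ± 0.09 in Ts65Dn and 10.55 ± 0.20 in WT (SD, n = 4 each), a log2 fold change of -0.06 (95% interval -0.35 to 0.22, adjusted p = 0.744 by limma). Without WT arrays 2 and 3 it was 0.09.

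**Figure D2:**
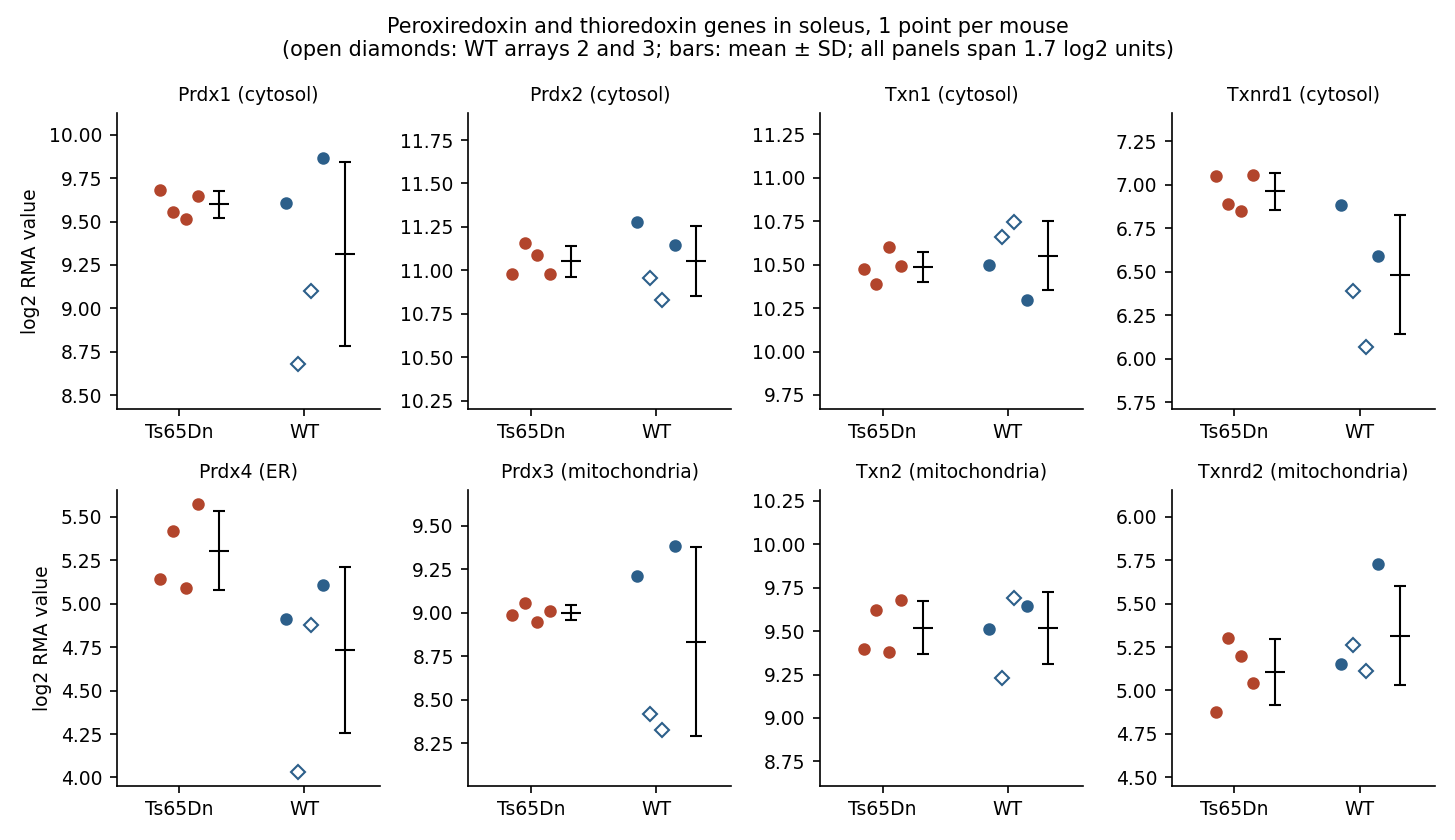
Log2 RMA values (vertical axis, each panel spanning the same range) of the 8 measured genes in Ts65Dn and WT soleus, 1 point per mouse, with mean ± SD (n = 4). The Ts65Dn points of Prdx3 lie between 8.95 and 9.06, inside a WT group that runs from 8.33 to 9.38, and 3 of 4 Ts65Dn points lie above the WT group for Txnrd1 and for Prdx4.

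In the ER, Prdx4 had the largest log2 fold change of the 8. It was at 5.14, 5.42, 5.09 and 5.57 on the Ts65Dn arrays, against 4.91, 4.03, 4.88 and 5.11 on the WT arrays. Its mean level was the lowest of the 8, above that of 57.1% of all genes. The value on WT array 2 lay below the median of all values on that array, 4.52. The lowest Ts65Dn array lay 1 rank under WT array 4, and 3 of 4 Ts65Dn arrays were above the whole WT group. The means were 5.31 ± 0.23 in Ts65Dn and 4.73 ± 0.48 in WT (SD, n = 4 each), a log2 fold change of 0.57 (95% interval 0.08 to 1.06) with a limma adjusted p of 0.102. Level-matched values did not overlap between the groups (lowest Ts65Dn value 5.13, highest WT value 5.10), as was the case with Ts65Dn above WT for 6.3% of all genes, and gave a log2 fold change of 0.80 (adjusted p = 0.117 by limma). Leaving out WT array 2, the lowest array, brought the log2 fold change to 0.34, and leaving out WT arrays 2 and 3 brought it to 0.30 (adjusted p = 0.387 by limma).

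In mitochondria, Prdx3, the main peroxiredoxin of the matrix, was at 8.99, 9.06, 8.95 and 9.01 on the Ts65Dn arrays, against 9.21, 8.41, 8.33 and 9.38 on the WT arrays. The Ts65Dn arrays lay close together, between a pair of WT arrays above them and a pair below them. The means were 9.0 ± 0.05 in Ts65Dn and 8.83 ± 0.54 in WT (SD, n = 4 each), a log2 fold change of 0.17 (95% interval -0.34 to 0.67, adjusted p = 0.610 by limma). The direction turned without WT arrays 2 and 3, to -0.30 (adjusted p = 0.255 by limma), and as level-matched values, to -0.06. The WT SD of Prdx3 was 12.0 times that of Ts65Dn, and of Prdx1 6.88 times. The WT SD was the larger for 8 of the 8 genes and for 67.3% of all genes.

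Txn2, the mitochondrial thioredoxin, was at 9.40, 9.62, 9.38 and 9.68 on the Ts65Dn arrays, against 9.51, 9.23, 9.69 and 9.64 on the WT arrays. The means were 9.52 ± 0.15 in Ts65Dn and 9.52 ± 0.21 in WT (SD, n = 4 each), and the 95% interval of the log2 fold change ran from -0.31 to 0.31 (adjusted p = 1.0 by limma). Txnrd2, the mitochondrial reductase, was at 4.87, 5.30, 5.20 and 5.05 on the Ts65Dn arrays, against 5.15, 5.26, 5.11 and 5.73 on the WT arrays. WT array 4 was the highest of the 8 and 2 Ts65Dn arrays were below the whole WT group. The means were 5.11 ± 0.19 in Ts65Dn and 5.31 ± 0.28 in WT (SD, n = 4 each), a log2 fold change of -0.21 (95% interval -0.57 to 0.15, adjusted p = 0.364 by limma), which was -0.0699 without WT array 4, -0.13 without Ts65Dn array 1 and -0.08 as level-matched values.

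**Figure D3:**
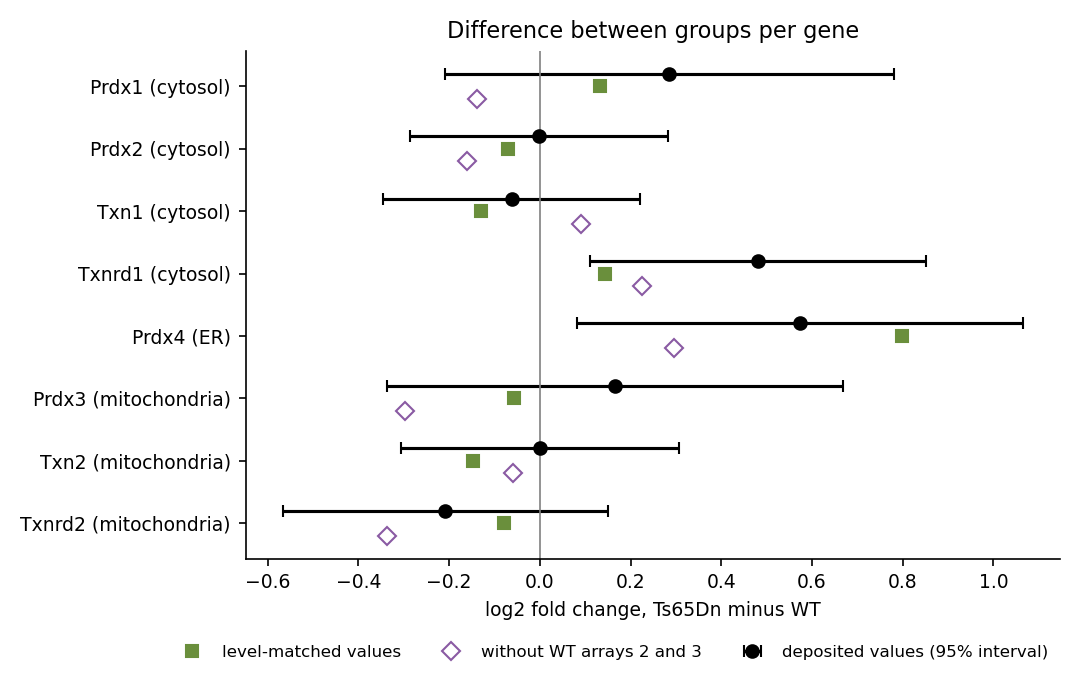
Log2 fold change of Ts65Dn minus WT (horizontal axis) for the 8 genes from the deposited values with its 95% interval (black), from level-matched values (green squares) and without WT arrays 2 and 3 (open diamonds). Txnrd1 and Prdx4 have intervals above 0, from 0.11 and from 0.08, and the values of Prdx1 and Prdx3 without WT arrays 2 and 3 lie at -0.14 and -0.30.

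The 8 genes differed in where WT arrays 2 and 3 lay. Both arrays were below the other 6 for Prdx1, Prdx2, Prdx3, Prdx4 and Txnrd1, 5 of 8 genes, and above the other 6 for Txn1, against 13.1% and 27.1% of all genes. These shares varied with level. They were 36.9% and 1.83% of genes with a mean level over 9, where Prdx1, Prdx2, Txn1 and Txn2 lie. Between 7 and 9, the level of Prdx3, they were 43.3% and 2.53%. Between 5 and 7, the level of Prdx4, Txnrd1 and Txnrd2, they were 20.2% and 18.1%. Txn2 and Txnrd2 showed neither order. Without these 2 arrays 3 of the 8 log2 fold changes were positive, those of Prdx4, Txnrd1 and Txn1, with a median of -0.10 over the 8 genes, beside 41.2% positive and a median of -0.05 over all genes. As level-matched values 3 of 8 were positive, those of Prdx1, Prdx4 and Txnrd1, with a median of -0.06, beside 50% positive and a median of 0.00 over all genes. Prdx4 and Txnrd1 were thus positive in all 3 settings.

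**Figure D4:**
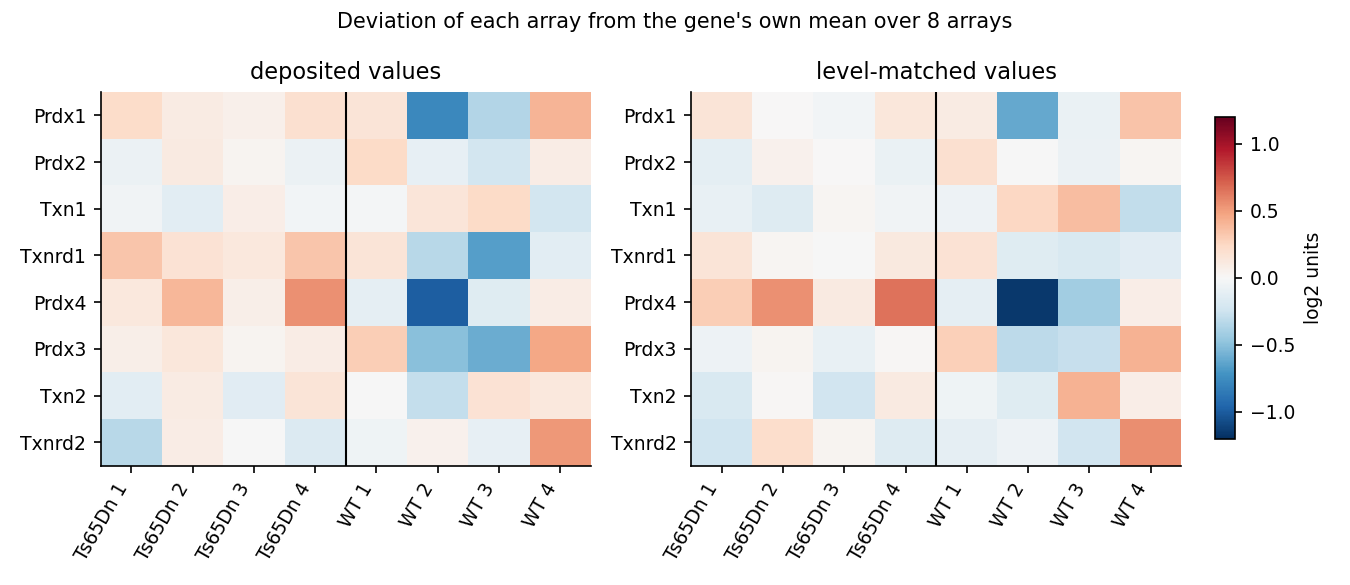
Deviation of each array (columns) from the mean of the gene over 8 arrays, in log2 units (colour), for the 8 genes (rows), as deposited values (left) and level-matched values (right). WT array 2 is low for Prdx1, Prdx3 and Prdx4 in both panels, and its Prdx4 value is the lowest deviation, at a level of 4.03 as deposited and 3.87 as level-matched.

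Likeness between genes was described by Pearson's r of the deviations from the group mean over the 8 arrays. All genes share the same arrays, including the 2 that stood apart, so r is given also over the 6 other arrays. These 6 are part of the 8, so the second r is not a separate check. In it the deviations of the 2 remaining WT arrays mirror each other. The genes named as most like a member were picked by r over the 8 arrays. Among the pairs of the set, Prdx4 and Txn2 had r = 0.92 over 8 arrays and 0.99 over 6, Prdx1 and Prdx3 had r = 0.91 and 0.72, and Prdx3 and Txn1 had r = -0.90 and -0.96. Other pairs changed sign without WT arrays 2 and 3, such as Prdx1 and Prdx2 (r = 0.60 over 8 arrays and -0.84 over 6) and Prdx3 and Txnrd1 (0.79 and -0.57). Among 9497 named genes above the median level, those most like Txnrd1 were Akap11, Nisch and Mypn (r = 0.99 each over 8 arrays, and 0.98, 0.98 and 0.97 over 6), and 40 genes had r above 0.95. Those most like Prdx4 were Fkbp7 (r = 0.98 over 8 arrays and 0.98 over 6), Dtwd1 (0.97 and 0.87) and Spryd4 (0.97 and 0.90). Those most like Txnrd2 were C3ar1, Tbcel and Btrc (r = 0.96 each over 8 arrays, and 0.96, 0.97 and 0.96 over 6).

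The genes that feed, restrain or share the work of the system were followed in 6 lists holding 55 genes, of which 54 were measured and 0 lie in the segments in 3 copies. Of the 54, limma called 2 higher, Sesn1 and Cat, and 0 lower, beside 2.32% and 2.94% of all genes. At an unadjusted p under 0.05, 18 were higher and 3 lower, beside 12.3% and 22.6% of all genes. The log2 fold change was positive for 41 of 54 and for 39.2% of all genes, with a median of 0.25 beside -0.10 for all genes, and of 0.11 without WT arrays 2 and 3. As level-matched values 35 of 54 were positive, with a median of 0.18, beside 50% and 0.00 for all genes. The groups did not overlap for 7 of 54 with Ts65Dn above WT and for 3 with Ts65Dn below. The shares of all genes were 6.81% and 15.9%.

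Regulators and recyclers of the system include Txnip, which binds and inhibits thioredoxin, Srxn1, which restores overoxidised peroxiredoxins, and the sestrins, stress-induced proteins that have been linked to peroxiredoxin recycling. Txnip had a log2 fold change of 0.47 (adjusted p = 0.128 by limma) and Srxn1 of 0.35 (adjusted p = 0.145 by limma). As level-matched values these were 0.31 and -0.0606, and without WT arrays 2 and 3 they were 0.0823 and 0.27. Of 10 measured, 1 was called higher, 0 lower and 9 did not pass, with a median log2 fold change of 0.25. Sesn1 was at 8.26, 8.12, 7.55 and 7.37 on the Ts65Dn arrays, against 6.84, 6.82, 6.32 and 6.90 on the WT arrays. All Ts65Dn arrays were above all WT arrays, and Sesn1 rose by 1.10 on the log2 scale (SE 0.22, adjusted p = 0.0456 by limma). Sesn2 had a log2 fold change of -0.46 (adjusted p = 0.0842 by limma) and Sesn3 of 0.60 (adjusted p = 0.112 by limma). As level-matched values these were -0.18 and 0.43, and without WT arrays 2 and 3 they were -0.31 and 0.32. Sesn3 was at 0.37 without Ts65Dn array 2 alone. Neither passed, so that a difference in direction among the sestrins was not established.

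Glutathione enzymes and catalase remove peroxide beside the peroxiredoxins. Of 8 measured, 1 was called higher, 0 lower and 7 did not pass, with a median log2 fold change of 0.26. Cat, the peroxisomal catalase, was at 9.67, 9.72, 9.65 and 9.84 on the Ts65Dn arrays, against 9.36, 8.97, 9.15 and 9.32 on the WT arrays. It rose by 0.52 on the log2 scale (SE 0.12, adjusted p = 0.0470 by limma), with no overlap between the groups. The glutathione peroxidase Gpx1 had a log2 fold change of 0.61 (adjusted p = 0.0697 by limma) and the glutathione reductase Gsr of 0.27 (adjusted p = 0.194 by limma). As level-matched values these were 0.32 and 0.0928. Gpx1 was at 0.33 without WT arrays 2 and 3, and Gsr at 0.18 without Ts65Dn array 4. The calls of Sesn1 and Cat were held without WT array 1 or 4 and lost without any other single array (limma adjusted p from 0.0770 to 0.115 for Sesn1 and from 0.0790 to 0.115 for Cat). They were also lost with level matching, where the adjusted p by limma was 0.0864 for Sesn1 and 0.103 for Cat, and without WT arrays 2 and 3 together, where it was 0.199 and 0.210. The log2 fold changes without those arrays were 0.95 for Sesn1 and 0.38 for Cat.

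The 11 listed genes of oxidative folding in the ER, where Prdx4 works, all had a positive log2 fold change. The smallest was that of Gpx7, a peroxidase of the ER, at 0.0053. Of the genes named Pdia or Tmx outside the list, Pdia2 (-0.13), Pdia5 (-0.03) and Tmx4 (-0.44) had negative values. Tmx2 (0.72) and Tmx3 (0.67) had positive ones. Of the 11 listed genes, limma called 0 higher and 0 lower, and 7 were higher at an unadjusted p under 0.05, beside 12.3% of all genes. The median was 0.46, beside -0.10 for all genes, 0.33 as level-matched values and 0.21 without WT arrays 2 and 3. In each of these settings 11 of 11 were positive, beside 39.2% of all genes as deposited, 50% as level-matched values and 41.2% without WT arrays 2 and 3. The median of all genes was 0.09 at levels between 5 and 7 and 0.31 between 7 and 9. All listed genes but Ero1b and Gpx7 lie at these levels. Deviations of the 11 from their own means had medians of -0.25 and -0.52 on WT arrays 2 and 3. These were 0.03 and -0.01 on WT arrays 1 and 4, and 0.05 to 0.36 on the Ts65Dn arrays. Gpx8, an ER membrane peroxidase, was at 7.01, 6.84, 6.87 and 7.35 on the Ts65Dn arrays, against 6.81, 6.22, 6.53 and 6.31 on the WT arrays, a log2 fold change of 0.55 (adjusted p = 0.0632 by limma), which was 0.19 as level-matched values (adjusted p = 0.577 by limma). Tmx1, a membrane-bound thioredoxin relative, was at 6.74, 6.10, 6.55 and 7.16 on the Ts65Dn arrays, against 6.09, 5.31, 3.71 and 5.95 on the WT arrays, a log2 fold change of 1.37 (adjusted p = 0.0737 by limma), which was 0.61 without WT arrays 2 and 3 and 0.85 without WT array 3 alone. Ero1a, the oxidase that drives disulfide formation, had a log2 fold change of 0.46 (adjusted p = 0.0747 by limma). The groups did not overlap for 3 of the 11, Gpx8, Tmx1 and Txndc12, with Ts65Dn above WT, as for 6.81% of all genes. For Tmx1 the margin between the lowest Ts65Dn array and WT array 1 was small.

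Markers of other cell types in the muscle were compared in the same way. The mean log2 level of 6 fibroblast markers was 6.68 to 6.91 on the Ts65Dn arrays and 6.52 to 6.65 on the WT arrays. Of the 6, 1 was called (Pdgfra, higher), 2 had an unadjusted p under 0.05, and 3 had a negative log2 fold change, the collagens Col1a1 (-0.35), Col1a2 (-0.24) and Col3a1 (-0.0590). The level of 6 endothelial markers was 5.59 to 5.98 in Ts65Dn and 5.21 to 5.58 in WT, with 1 of 6 called (Kdr, higher) and 3 at an unadjusted p under 0.05, while Tie1 (-0.0384) and Cldn5 (-0.30) had negative log2 fold changes. The level of 8 macrophage markers was 5.19 to 5.73 in Ts65Dn and 4.84 to 5.12 in WT, with 1 of 8 called (Cd68, higher by 2.39) and 1 at an unadjusted p under 0.05. Without the called marker the groups overlapped in each of these lists, with 6.90 to 7.17 in Ts65Dn and 6.77 to 6.99 in WT for fibroblast markers, 5.61 to 6.13 in Ts65Dn and 5.38 to 5.84 in WT for endothelial markers, and 4.96 to 5.22 in Ts65Dn and 4.77 to 5.04 in WT for macrophage markers. The marker left out was picked by its call in these same data, so this overlap is not a test of cell content. Of the markers kept, Lum (1.02), Tek (0.74) and Cdh5 (0.54) were higher at an unadjusted p under 0.05 by limma. For 4 Schwann cell markers the level was 4.57 to 4.77 in Ts65Dn and 4.89 to 5.01 in WT, without overlap. Of the 4, 0 were called and 0 had an unadjusted p under 0.05. The log2 fold change was positive for 0 of the 4, beside 39.2% of all genes, and 2 of the 4 lay above the median level. For 5 adipocyte markers the level was 5.79 to 6.39 in Ts65Dn and 6.11 to 6.62 in WT, with 0 of 5 called and 1 at an unadjusted p under 0.05. Log2 array values have no zero, so no marker can be said to be at 0. The part of these cells in the values of Prdx4, Txnrd1, the ER genes, Sesn1 and Cat was not tested.

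NADPH, the electron source of the reductases, is supplied by several dehydrogenases. Of 9 measured genes limma called 0 higher and 0 lower. At an unadjusted p under 0.05, 3 were higher and 1 lower, beside 12.3% and 22.6% of all genes. The median log2 fold change was 0.38, which was 0.0662 as level-matched values and -0.04 without WT arrays 2 and 3. Pgd, of the pentose phosphate pathway, was at 5.98, 5.88, 6.21 and 6.40 on the Ts65Dn arrays, against 5.88, 5.35, 5.64 and 5.54 on the WT arrays, a log2 fold change of 0.52 (adjusted p = 0.0630 by limma). H6pd, which makes NADPH inside the ER, was at 5.13, 5.44, 5.55 and 5.22 on the Ts65Dn arrays, against 5.71, 5.68, 5.73 and 5.73 on the WT arrays. There every Ts65Dn array was below every WT array, as for 15.9% of all genes, with a log2 fold change of -0.38 (adjusted p = 0.0732 by limma). Nnt, the mitochondrial transhydrogenase, had a log2 fold change of 0.58 (adjusted p = 0.107 by limma), which was 0.35 as level-matched values and 0.26 without WT arrays 2 and 3.

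Glutaredoxins work in parallel with thioredoxins, and ribonucleotide reductase and the methionine sulfoxide reductases take electrons from them. Of 11 measured, limma called 0 higher and 0 lower, with a median log2 fold change of -0.07. At an unadjusted p under 0.05, 2 were higher and 1 lower, beside 12.3% and 22.6% of all genes. The cytosolic Glrx had a log2 fold change of 0.57 (adjusted p = 0.0889 by limma), with all Ts65Dn arrays above all WT arrays, as for 6.81% of all genes. The mitochondrial Glrx2 had one of -0.29 (adjusted p = 0.113 by limma), with all Ts65Dn arrays below all WT arrays, as for 15.9% of all genes. Without WT arrays 2 and 3 these were 0.18 and -0.28, and as level-matched values 0.18 and -0.41. Rrm1, the large subunit of ribonucleotide reductase, had a log2 fold change of 0.68 (adjusted p = 0.111 by limma), and 0.18 without WT arrays 2 and 3.

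The genes that build selenocysteine into proteins such as the thioredoxin reductases were also followed. Of 5 measured, limma called 0 in either direction, with 0 at an unadjusted p under 0.05 and a median log2 fold change of 0.04. Sephs2, which makes the selenium donor, had a log2 fold change of 0.35 (adjusted p = 0.383 by limma), 0.0624 without WT arrays 2 and 3 and 0.0175 without WT array 3 alone. Sepsecs had one of 0.17 (adjusted p = 0.658 by limma) and Eefsec, the elongation factor for selenocysteine, one of -0.17 (adjusted p = 0.711 by limma). As level-matched values these were 0.0124 for Sephs2, 0.34 for Sepsecs and 0.0637 for Eefsec.

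**Figure D5:**
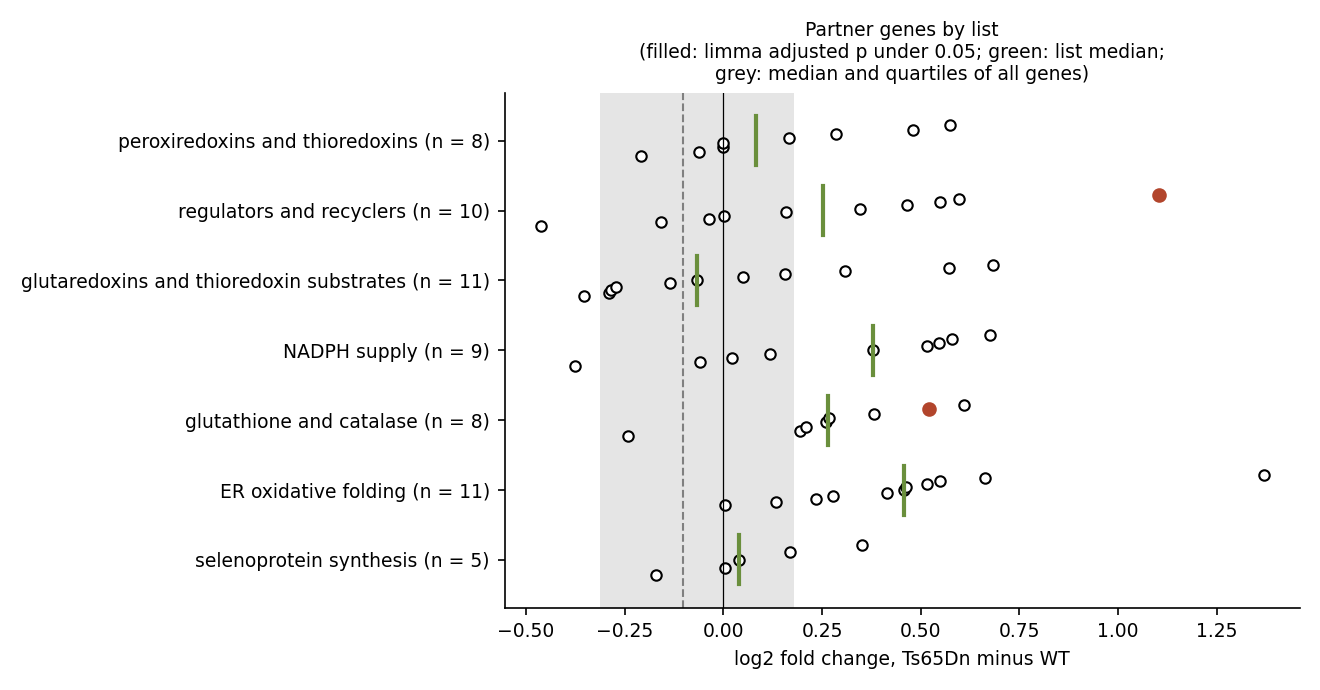
Log2 fold change of Ts65Dn minus WT (horizontal axis) for the 8 peroxiredoxin and thioredoxin genes and the 6 partner lists, 1 point per gene, with list medians (green) and the median and quartiles of all genes (grey, -0.31 to 0.18). Filled points are Sesn1 at 1.10 and Cat at 0.52, and all 11 ER folding genes lie above 0.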

How the data were processed

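Deposited values were the authors' gene-level log2 values of 8 arrays, made with Affymetrix Expression Console 1.1 and RMA per the submitters' processing notes. The log2 scale was read from the values (0.67 to 13.1), and the genome build was not given in the sources used here. RMA corrects background and normalizes between arrays, yet array medians and ranges still differed. Scanner files were not used here.

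Of 35556 probe sets, 21789 had 1 gene symbol, 1621 several and 12146 none. Symbols were updated through Entrez identifiers with RefSeq (GRCm38.p6) for 21698 probe sets, and 91 were kept. Where a gene had more than 1 probe set (999 genes), the brightest was used, which left 19938 genes. The comparison used limma 3.58.1 (lmFit, then eBayes) under R 4.3.3, two-sided and without covariates. P-values were adjusted by Benjamini-Hochberg across the 19938 genes, with a threshold of 0.05. The tests were tested on simulated data. Prdx5, Prdx6 and G6pdx, among others of the lists, were not analysed here. Replicates are separate mice, and their number limits the precision.

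Genes named beyond the 8 are the 3 of each partner list with the smallest p and, for the 3 members with the smallest p, the 3 most alike. App, the marker genes, Txnip, Srxn1, Gpx7, Txndc12, Pdia2, Pdia5, Tmx2, Tmx3, Tmx4, Txndc9 and Txnl4a are exceptions. The members and lists were chosen with earlier results of these data known. Alternatives covered normalization, filters, probe sets, block, weights, variance model, threshold, adjustment and left-out arrays.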

Additional observations from a re-analysis of the deposited data

How the results depend on the processing

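Over 20 alternatives the number of the 8 genes called lower stayed at 0 by limma, and the number called higher was 1 (Txnrd1) at an adjusted p under 0.1 and between 0 and 1 when single arrays were left out. Unadjusted p-values under 0.05 were held by 1 to 3 of the 8 genes and 3351 to 7708 of all genes in these settings. The threshold, the joint adjustment, the level filter, the replicate block and the variance model left each log2 fold change as it was. The mean of all probe sets could move only Prdx1 and Prdx2. Of 160 alternative log2 fold changes of the 8 genes, with those fixed ones included, 25 had the opposite sign. For Prdx1 this was -0.14 without WT arrays 2 and 3. For Prdx2 it was 0.20 with median centring and 0.21 with the mean of all probe sets, and single arrays left out gave -0.0763 to 0.0742. For Prdx3 it was -0.0228 with quantile normalization, -0.0562 with level matching, -0.0390 with array weights and -0.30 without WT arrays 2 and 3, and -0.00322 to 0.35 with single arrays left out. For Txn1 it was 0.14 with median centring, 0.0104 with array weights and 0.0908 without WT arrays 2 and 3, and -0.15 to 0.00292 with single arrays left out. For Txn2 it was -0.13 with quantile normalization, -0.14 with cyclic loess, -0.15 with level matching, -0.00802 with array weights and -0.0586 without WT arrays 2 and 3, and -0.10 to 0.0567 with single arrays left out. Among partner genes, Eefsec was at 0.0314 with median centring, 0.0164 with cyclic loess, 0.0637 with level matching, 0.14 without WT arrays 2 and 3 and -0.42 to 0.0701 with single arrays left out, and Sepsecs at -0.0445 to 0.45 with single arrays left out. The cause of these turns was not tested.

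Partner genes called higher numbered 2, against 0 with quantile normalization, cyclic loess, level matching, the replicate block, array weights, all probe sets adjusted together and without WT arrays 2 and 3, 1 among genes above the median level, 4 with median centring, 10 at an adjusted p under 0.1 (2 lower) and 0 to 6 with single arrays left out. Over all genes 462 were called higher and 587 lower, against 1 and 0 with quantile normalization, 951 and 57 with median centring, 117 and 18 with cyclic loess, 80 and 19 with level matching, 294 and 142 among genes above the median level, 159 and 77 with array weights, 1754 and 3207 at an adjusted p under 0.1, 0 and 0 with all probe sets adjusted together, and 1 and 0 without WT arrays 2 and 3. Single arrays left out gave 0 to 1215 higher and 0 to 1650 lower. The median of all genes was 0.10 with median centring and -0.10 as deposited.

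Replicate numbers in the labels are shared by both groups, and same-numbered arrays had correlations of deviations of 0.03, 0.01, 0.09 and 0.07. Whether same-numbered arrays also shared their handling was not tested. With the replicate block, 0 genes were called higher and 0 lower over the whole table, against 462 and 587 without it. At an unadjusted p under 0.05 there were 7014 genes with the block. Of the 8 genes 0 were called, with or without the block.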

Other observations

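The remaining genes named Txndc, Txnl, Tmx or Pdia, which carry thioredoxin-like domains or bear the family name, were looked at after the values of the lists were known. Of 13 measured outside the lists, limma called 0 higher and 0 lower, and the unadjusted p was under 0.05 for 3 higher and 1 lower genes, beside 12.3% and 22.6% of all genes. The log2 fold change was positive for 6 of 13, with a median of -0.03. It was negative for 7, among them Pdia2 at -0.13, Pdia5 at -0.03 and Tmx4 at -0.44. Tmx4 was at -0.78 as level-matched values and at -0.55 without WT arrays 2 and 3. Tmx2 was at 0.72 and turned to -0.14 without those arrays. In 3 of the 13 all Ts65Dn arrays were above all WT arrays, which held for 6.81% of all genes. Tmx3, of the ER membrane, had a log2 fold change of 0.67 (adjusted p = 0.0774 by limma), Txndc9 one of 0.47 (adjusted p = 0.108 by limma) and Txnl4a, a spliceosome protein, one of 0.26 (adjusted p = 0.154 by limma). Without WT arrays 2 and 3 these were 0.25, 0.12 and 0.31, and as level-matched values 0.39, 0.21 and -0.03.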
